A study of Homo sapiens with 12 samples.

Results

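Transcripts of 10 receptor tyrosine kinases, AXL, MERTK, TYRO3, KIT, FLT3, PDGFRB, IGF1R, INSR, FGFR1 and EGFR, were followed in K562 cells, in imatinib-resistant K562/IM cells and in libraries of both lines labelled as lycorine-treated. The members were taken by symbol, and all 10 were found among the 19447 gene symbols of the count table. K562 is an established human myeloid leukemia line that carries the BCR-ABL fusion kinase, and imatinib is an inhibitor of that kinase. K562/IM was derived from K562 by exposure to stepwise rising imatinib and kept in 5 µM of the drug, so that acquired resistance and the presence of imatinib cannot be told apart, and no source used here says whether the line is 1 clone. Lycorine, a plant alkaloid, was given at 6 µM, and the exposure time of the sequenced cells is not given in the sources used here. The 4 groups of 3 libraries are K562 (untreated), K562+L (K562 with lycorine), K562/IM (the resistant line without lycorine) and a group whose labels read K562/IM with lycorine, written here as the K562/IM+L-labelled (or labelled) libraries. Nothing states that the 3 libraries of a group came from separate cultures, so the p-values measure the spread between these libraries, which may be technical.

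Receptor tyrosine kinases are single-pass membrane proteins, most of which pair when an outside ligand binds. Once active, they phosphorylate tyrosines on themselves and on adaptor proteins, which feed the RAS and PI3K cascades. BCR-ABL feeds the same cascades without a ligand, and KIT and PDGFRB are kinases that imatinib itself inhibits. AXL, MERTK and TYRO3 form the TAM family, whose ligands are GAS6 and protein S, and TAM receptors and IGF1R are known in leukemia as alternative inputs to survival signals.

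Library totals ran from 75093844 to 107344598 counts. All 10 erythroid markers examined were at 1 CPM (counts scaled to library size) or more in every group, and their summed level was 6110 to 8450 CPM in K562, 4110 to 4680 in K562+L, 2800 to 3040 in K562/IM and 33000 to 46400 in the K562/IM+L-labelled libraries. ABCB1, a drug efflux pump, averaged 1.76 CPM in K562, 4.28 in K562+L, 23.6 in K562/IM and 0.752 in the K562/IM+L-labelled libraries. By Western blot, the paper reported the ABCB1 protein, P-gp, as higher in K562/IM than in K562 and lower in K562/IM after lycorine. ABCB1 was not targeted in this study and does not settle the label. The label was left as given, and those libraries were set against both K562/IM and K562. Among low values, 67.9% of counts from 1 to 25 were multiples of 4 or 1 above, against 52% of those whole numbers, so the counting error of a low value may be wider than its count implies.

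In K562/IM, AXL, KIT and MERTK transcripts were higher than in K562, by 19.6-fold, 6.39-fold and 2.12-fold, and IGF1R was 1.38-fold higher. EGFR and TYRO3 were lower. In the K562/IM+L-labelled libraries, KIT overlapped K562, AXL lay between K562 and K562/IM, MERTK overlapped K562/IM, and INSR stood 33.4-fold above K562/IM. In K562+L, INSR, FGFR1 and IGF1R were higher than in K562. The plot of CPM by library shows these levels.

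**Figure D1:**
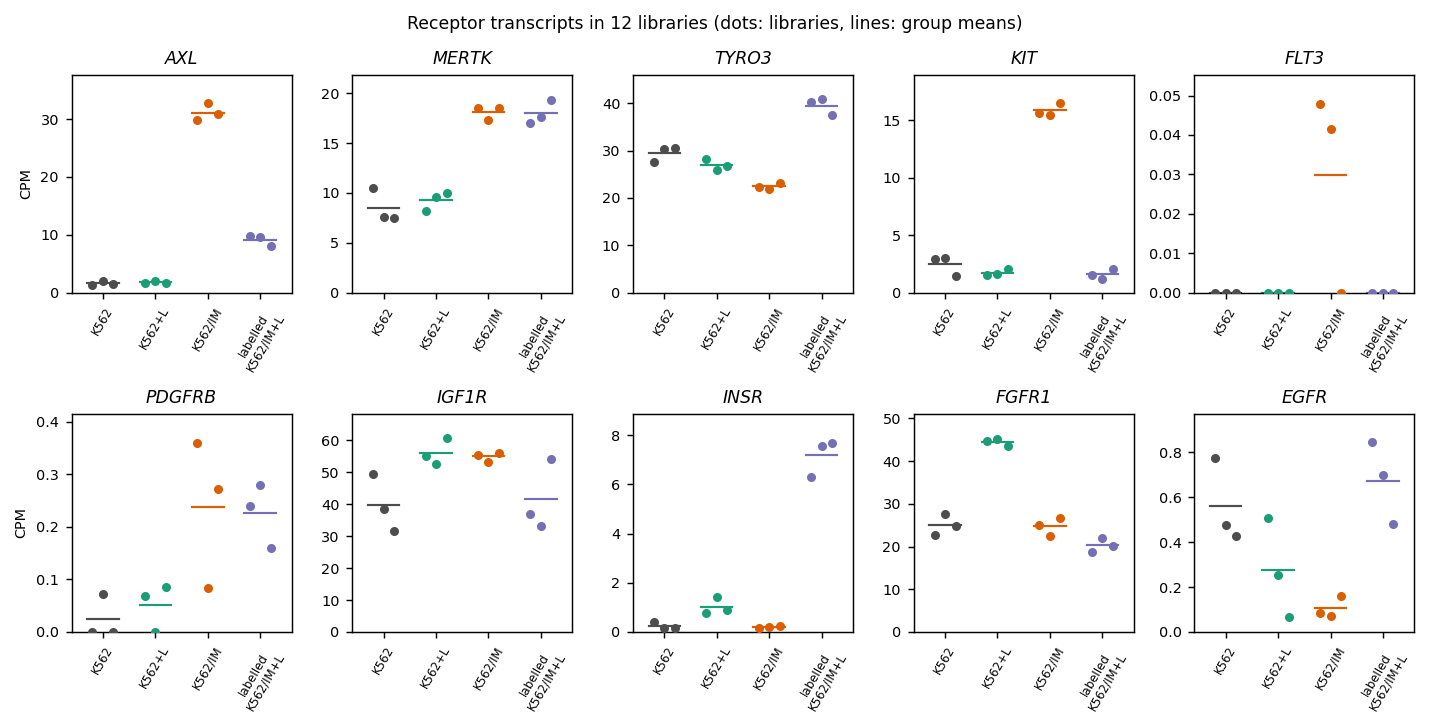
CPM (linear axis from 0, a scale for each panel) of the 10 receptors in each of 12 libraries, in 4 groups of 3; dots are libraries and lines are group means. AXL and KIT are highest in all 3 K562/IM libraries, INSR is highest in all 3 K562/IM+L-labelled libraries, and FGFR1 is highest in all 3 K562+L libraries.

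Calls were made at an adjusted p under 0.05 in edgeR's quasi-likelihood test fitted over all genes that passed a low-count filter. For K562/IM against K562, 8 members could be tested and 4 passed as higher and 2 as lower, where 30.1% of the 13406 genes tested were called higher and 27.1% lower. With an absolute log2 fold change over 1 as well, 4 members passed, against 19.1% of all genes. For K562+L against K562, 3 of 8 passed as higher and 0 as lower, against backgrounds of 18.2% and 19.0%, and 1 passed with the fold threshold, against 6.39%. For the K562/IM+L-labelled libraries, 9 members could be tested. Against K562/IM, 3 passed as higher and 2 as lower (33.2% and 33.6% of all genes tested), 4 of them past the fold threshold (28.5%). Against K562, 5 passed as higher and 1 as lower (28.2% and 27.8%), 4 of them past the fold threshold (23.8%). Both counts include PDGFRB, which passed the filter there only through the labelled libraries, against a K562 reference of 6 counts in 1 library. With upper-quartile normalization the calls over all genes in this last comparison moved from 3753 higher and 3693 lower to 4564 and 2883. EGFR, among the calls of both comparisons with K562/IM, held at most 17 counts in any K562/IM library. It passed the filter there only through K562 or the labelled libraries. The counts are not read as a result about the receptors as a group, and the account below is of the single genes. The comparisons share libraries, K562 standing in 3 of them and K562/IM in 2, so their values are set side by side without a count of overlap.

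**Figure D2:**
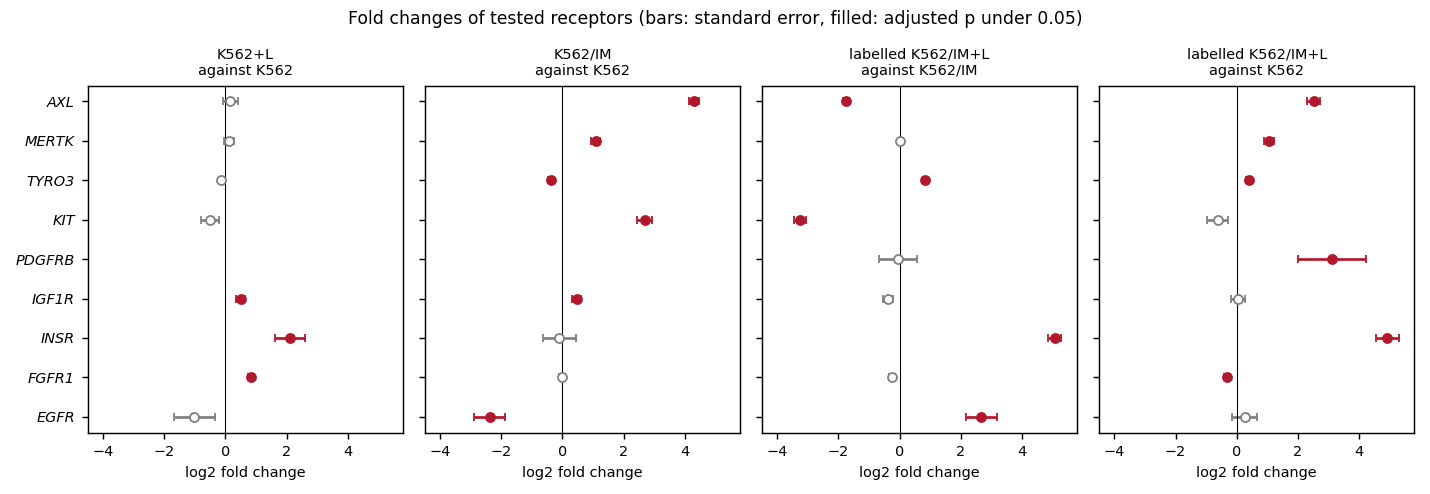
Log2 fold change of the 9 receptors that could be tested in any comparison, with the standard error as a bar, in 4 comparisons; filled points had an adjusted p under 0.05. In K562/IM against K562, AXL is at 4.29 and EGFR at -2.38, and in the K562/IM+L-labelled libraries against K562/IM, INSR is at 5.06 and KIT at -3.25.

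AXL (ENSG00000167601.11, chr19:41219203-41261766, GRCh38, plus strand), a TAM receptor studied in kinase inhibitor resistance of several cancers, had the highest fold change of the 8 members tested in the resistant line. Its level was 1.28, 2.01 and 1.47 CPM in K562 and 29.9, 32.7 and 30.8 CPM in K562/IM. No library of one group came near the other. The log2 fold change was 4.29 (SE 0.17, adjusted p = 1.81e-06, edgeR's quasi-likelihood test, higher in 3 of 3 libraries). In K562+L, AXL stood at 1.69, 1.94 and 1.73 CPM, within the range of K562, and the log2 difference was 0.17 (SE 0.23, adjusted p = 0.603). The K562/IM+L-labelled libraries gave 9.85, 9.63 and 8.01 CPM, below every K562/IM library and above every K562 library. AXL fell by 1.74 on the log2 scale against K562/IM (SE 0.10, adjusted p = 7.72e-06) and was 2.51 above K562 (SE 0.21, adjusted p = 8.77e-05).

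The promoter windows of AXL, KIT and INSR are shown because these are the members with the largest changes against K562/IM or K562 among those above 1 CPM. They run from 250 to 51 bases before the RefSeq start (GRCh38.p14), 5′ to 3′ on the gene's strand, with matches to the GC box GGGCGG in capitals. AXL lies on plus at chr19:41218973-41219172, KIT on plus at chr4:54657707-54657906 and INSR on minus at chr19:7294465-7294664.
AXL: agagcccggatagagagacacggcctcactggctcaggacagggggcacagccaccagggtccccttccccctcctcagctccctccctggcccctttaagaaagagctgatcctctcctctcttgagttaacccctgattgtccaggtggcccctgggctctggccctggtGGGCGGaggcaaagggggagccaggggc
KIT: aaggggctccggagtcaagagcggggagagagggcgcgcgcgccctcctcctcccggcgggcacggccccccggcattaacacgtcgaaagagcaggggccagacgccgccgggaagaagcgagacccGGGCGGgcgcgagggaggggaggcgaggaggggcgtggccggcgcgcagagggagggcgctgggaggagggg
INSR: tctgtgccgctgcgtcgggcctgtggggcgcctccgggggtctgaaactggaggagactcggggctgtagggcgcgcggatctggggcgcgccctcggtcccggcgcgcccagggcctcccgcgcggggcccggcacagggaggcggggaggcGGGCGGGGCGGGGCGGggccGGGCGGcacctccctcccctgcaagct
The AXL window held 1 GC box, the KIT window 1 and the INSR window 4, some of which overlap each other, and 35.0% of 35116 promoter windows of this length held at least 1 on either strand. Of the 9 members matched in the RefSeq promoter table (FGFR1 was not matched), none held the GATA motif AGATAA, which 7.6% of all windows held, and only TYRO3 held the AP-1 motif TGANTCA, which 5.3% held.

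MERTK (ENSG00000153208.16, chr2:111898479-112029561), the TAM receptor that clears dying cells in macrophages, was higher in both groups labelled as the resistant line. K562 libraries gave 10.5, 7.58 and 7.53 CPM and K562+L libraries 8.23, 9.57 and 10.0 CPM. These groups overlapped, with a log2 difference of 0.12 (SE 0.16, adjusted p = 0.591). K562/IM libraries gave 18.5, 17.3 and 18.5 CPM and the K562/IM+L-labelled libraries 17.0, 17.6 and 19.3 CPM. All 6 lay above all 6 libraries of K562 and K562+L. MERTK was 1.08 higher on the log2 scale in K562/IM than in K562 (SE 0.14, adjusted p = 0.000487) and 1.05 higher in the labelled libraries than in K562 (SE 0.16, adjusted p = 0.00115). Between the labelled libraries and K562/IM the log2 difference was 0.02 (SE 0.091, adjusted p = 0.874).

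TYRO3 (ENSG00000092445.11, chr15:41557675-41583586), the third TAM receptor, moved the other way from AXL in the resistant line. Its level was 27.5, 30.4 and 30.5 CPM in K562, 28.2, 25.8 and 26.8 CPM in K562+L and 22.4, 21.8 and 23.2 CPM in K562/IM. The K562/IM+L-labelled libraries gave 40.2, 40.9 and 37.4 CPM, the highest of the series. TYRO3 fell by 0.39 on the log2 scale in K562/IM (SE 0.08, adjusted p = 0.00392) and was 0.84 higher in the labelled group than in K562/IM (SE 0.072, adjusted p = 4.32e-05). Against K562 the labelled libraries were 0.40 higher (SE 0.092, adjusted p = 0.00789), and K562+L differed from K562 by -0.13 (SE 0.09, adjusted p = 0.28). The spread within each group was small, from 3.06% to 5.68% of the mean (coefficient of variation).

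KIT (ENSG00000157404.15, chr4:54657918-54740715), the stem cell factor receptor of blood progenitors and mast cells and a target of imatinib, was high in K562/IM alone among the 4 groups. K562 libraries gave 2.96, 3.0 and 1.48 CPM. The 3 K562/IM libraries gave 15.6, 15.5 and 16.5 CPM, all far above the K562 mean of 2.48 CPM. The log2 fold change was 2.68 (SE 0.25, adjusted p = 9.44e-05). K562+L libraries stood at 1.56, 1.64 and 2.03 CPM and the K562/IM+L-labelled libraries at 1.57, 1.23 and 2.09 CPM. Both groups lay mostly below K562 and overlapped it through K562 replicate 3. KIT fell by 3.25 on the log2 scale in the labelled libraries against K562/IM (SE 0.20, adjusted p = 9.14e-06), the largest fall of any member in the 4 pairwise comparisons. Against K562, the difference was -0.62 (SE 0.34, adjusted p = 0.154) in the labelled libraries and -0.51 (SE 0.29, adjusted p = 0.207) in K562+L. Without K562 replicate 3 both passed, at -0.89 (adjusted p = 0.0377) and -0.77 (adjusted p = 0.0344) in edgeR's quasi-likelihood test.

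FLT3 (ENSG00000122025.14, chr13:28003274-28100592), the receptor of early progenitors that is mutated in many acute myeloid leukemias, was at 0 counts in 10 of 12 libraries. K562/IM replicates 1 and 2 held 4 counts each. It could be tested in no comparison. A count of 0 allows a level of up to 0.028 to 0.0419 CPM, depending on the library (3 counts), or 0.112 to 0.167 CPM if a fragment gave 4 counts, and covers counting error only.

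PDGFRB (ENSG00000113721.13, chr5:150113837-150155872), the receptor of PDGF-B on mesenchymal cells and also an imatinib target, was near the limit of detection. K562 libraries held 0, 6 and 0 counts and K562+L libraries 6, 0 and 9. K562/IM libraries held 30, 8 and 29 counts and the K562/IM+L-labelled libraries 19, 20 and 15. No library exceeded 0.359 CPM. Through the labelled libraries PDGFRB passed the filter against K562, with a log2 difference of 3.11 (SE 1.1, adjusted p = 0.0497), and that reference was 6 counts in 1 library. The call was lost when any library other than K562 replicate 2 was left out, at 2.56 to 3.32. Without that library the K562 side was at 0 counts and the fitted value, 7.19, has no measured reference. It was not tested in K562/IM against K562, and the difference between the labelled libraries and K562/IM was -0.05 (SE 0.62, adjusted p = 0.947).

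Summed markers of 4 other cell types were higher in K562/IM, where AXL and KIT were highest, than in the other 3 groups. The 4 megakaryocyte markers summed to 4.79 to 5.94 CPM in K562, 2.85 to 3.86 in K562+L, 189 to 208 in K562/IM and 21.1 to 22.6 in the K562/IM+L-labelled libraries, most of it ITGA2B, with GP9 and PF4 at 0 in K562/IM. The 6 fibroblast markers summed to 20.1 to 25.1 CPM in K562/IM, 3 of the 6 at 1 CPM or more and COL1A2 at 17.2 CPM, with THY1 at 0. The same sum was 0.811 to 1.03 in K562, 0.67 to 0.843 in K562+L and 1.02 to 1.34 in the K562/IM+L-labelled libraries. The 6 monocyte markers summed to 180 to 190 CPM in K562/IM, 117 to 122 in K562, 111 to 131 in K562+L and 82.9 to 87.7 in the labelled libraries, mostly LYZ, with CD14 at 0.0608 CPM in K562/IM. The 4 endothelial markers summed to 3.23 to 4.27 CPM in K562/IM, 1.71 to 2.11 in K562, 1.97 to 2.07 in K562+L and 1.55 to 2.16 in the labelled libraries. VWF (2.18 CPM) and PECAM1 (1.18) made most of the K562/IM sum, with CDH5 at 0. The epithelial and lymphocyte sums in K562/IM lay within the range of K562. The part of these genes and of the erythroid genes in the receptor levels was not tested. In bulk RNA a change in the number of cells that hold a transcript and a change in transcript per cell cannot be told apart.

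IGF1R (ENSG00000140443.14, chr15:98648539-98964530), the receptor of insulin-like growth factors, signals through the PI3K cascade. K562 libraries spread over 49.3, 38.6 and 31.5 CPM, and the K562/IM+L-labelled libraries over 37.0, 33.3 and 54.1 CPM. K562+L libraries gave 55.1, 52.7 and 60.6 CPM and K562/IM libraries 55.5, 53.3 and 56.1 CPM. Both of these groups lay above all 3 K562 libraries. The log2 difference from K562 was 0.50 in K562+L (SE 0.16, adjusted p = 0.04) and 0.47 in K562/IM (SE 0.15, adjusted p = 0.0303). Neither call was firm. The K562+L call was kept when K562 replicate 1 was left out (0.67) and lost when any other single library was left out (0.35 to 0.54). The K562/IM call was kept without K562 replicate 1 or 3 and lost without K562 replicate 2 or any K562/IM library, over a range of 0.31 to 0.62. In the labelled libraries the difference was -0.38 from K562/IM (SE 0.17, adjusted p = 0.0902) and 0.04 from K562 (SE 0.22, adjusted p = 0.90). Without labelled replicate 3, the one at 54.1 CPM, the difference from K562/IM was -0.62 and passed (adjusted p = 0.000126).

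INSR (ENSG00000171105.13, chr19:7112255-7294034), the insulin receptor and closest relative of IGF1R, was scarce in both groups without lycorine and higher in both groups labelled with it. K562 libraries gave 0.393, 0.155 and 0.154 CPM and K562/IM libraries 0.18, 0.208 and 0.261 CPM, from 12 to 32 counts each. K562+L libraries gave 0.785, 1.43 and 0.883 CPM, above every library without lycorine. The K562/IM+L-labelled libraries gave 6.3, 7.58 and 7.69 CPM, from 501 to 724 counts. INSR was 2.13 higher on the log2 scale in K562+L than in K562 (SE 0.49, adjusted p = 0.0118), and 2.72 higher without K562 replicate 1. In the labelled libraries it was 5.06 above K562/IM (SE 0.21, adjusted p = 1.51e-06), the largest rise of any member in the 4 pairwise comparisons, and 4.91 above K562 (SE 0.38, adjusted p = 5.87e-05; 5.50 without K562 replicate 1). K562/IM and K562 overlapped, with a difference of -0.11 (SE 0.54, adjusted p = 0.877). The summed erythroid markers were 33000 to 46400 CPM in the labelled libraries, 6110 to 8450 in K562, 4110 to 4680 in K562+L and 2800 to 3040 in K562/IM, and their part in the INSR level was not tested.

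FGFR1 (ENSG00000077782.20, chr8:38400215-38468834), a receptor of fibroblast growth factors, was highest in K562+L and lowest in the labelled libraries. K562 libraries gave 22.8, 27.5 and 24.8 CPM, and K562+L libraries 44.8, 45.1 and 43.6 CPM. The groups were far apart, with a log2 fold change of 0.83 (SE 0.096, adjusted p = 0.000886). K562/IM libraries gave 25.1, 22.4 and 26.6 CPM, within the range of K562 but for 1 library, with a difference of -0.02 (SE 0.10, adjusted p = 0.887). The K562/IM+L-labelled libraries were lowest, at 18.7, 22.1 and 20.2 CPM. Their difference from K562/IM was -0.25 (SE 0.10, adjusted p = 0.0619), which passed without K562/IM replicate 2 or labelled replicate 2, at -0.32 each. Their difference from K562 was -0.32 (SE 0.11, adjusted p = 0.0475), a call lost without any library but K562 replicate 1, at -0.25 to -0.39.

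EGFR (ENSG00000146648.17, chr7:55019021-55211628), the epidermal growth factor receptor of epithelial cells, was under 1 CPM in all 12 libraries. K562 libraries held 63, 40 and 33 counts (0.773, 0.477 and 0.425 CPM) and K562/IM libraries 7, 7 and 17 counts (0.0838, 0.0729 and 0.159 CPM). Every K562 library exceeded every K562/IM library. With at most 17 counts in a K562/IM library, EGFR passed the filter there only through K562. Against K562/IM it passed only through the labelled libraries, so the K562/IM side of both fold changes was hardly measured. EGFR fell by 2.38 on the log2 scale in K562/IM (SE 0.51, adjusted p = 0.00504). The K562/IM+L-labelled libraries held 67, 50 and 45 counts (0.843, 0.698 and 0.478 CPM), which was 2.67 above K562/IM (SE 0.50, adjusted p = 0.00219) and overlapped K562 (0.25, SE 0.41, adjusted p = 0.632). K562+L libraries spread from 0.0672 to 0.508 CPM, with a difference of -1.02 from K562 (SE 0.67, adjusted p = 0.262).

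Because CPM grows with transcript length, the receptors were set against each other per kilobase of annotated exon. The 10 summed to 9.99 ± 0.893 CPM per kb (SD, n = 3) in K562, 12.5 ± 0.365 in K562+L, 20.6 ± 0.375 in K562/IM and 14.7 ± 0.762 in the K562/IM+L-labelled libraries. In K562, IGF1R (2.85 CPM per kb) and TYRO3 (2.69) led and overlapped, followed by MERTK and FGFR1 (1.81 each), which also overlapped. AXL was sixth at 0.308. In K562/IM, AXL came first at 6.04 ± 0.275 CPM per kb, above every library of the next receptor, and made 29.3% of the sum, against 3.1% in K562. IGF1R (3.94) and MERTK (3.85) followed and overlapped, and KIT (2.86) was next with 13.9% of the sum. In the labelled libraries MERTK (3.82), TYRO3 (3.61) and IGF1R (2.97) came first and each overlapped the next, while AXL (1.78) overlapped FGFR1 (1.47) and INSR reached 0.688. In K562+L the order was IGF1R (4.03), FGFR1 (3.22), TYRO3 (2.46) and MERTK (1.97), all apart. With the longest transcript as length instead of all exons, other orders were found. FGFR1, whose 43 annotated transcripts hold many alternative exons, ranked first in K562 (4.03 CPM per kb) and in K562+L (7.16). AXL stayed first in K562/IM (6.57), where MERTK (4.57) ranked above IGF1R (4.49) and FGFR1 (3.98) above KIT (3.06). In the labelled libraries TYRO3 (4.81) ranked above MERTK (4.54), and FGFR1 (3.28) above AXL (1.93).

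**Figure D3:**
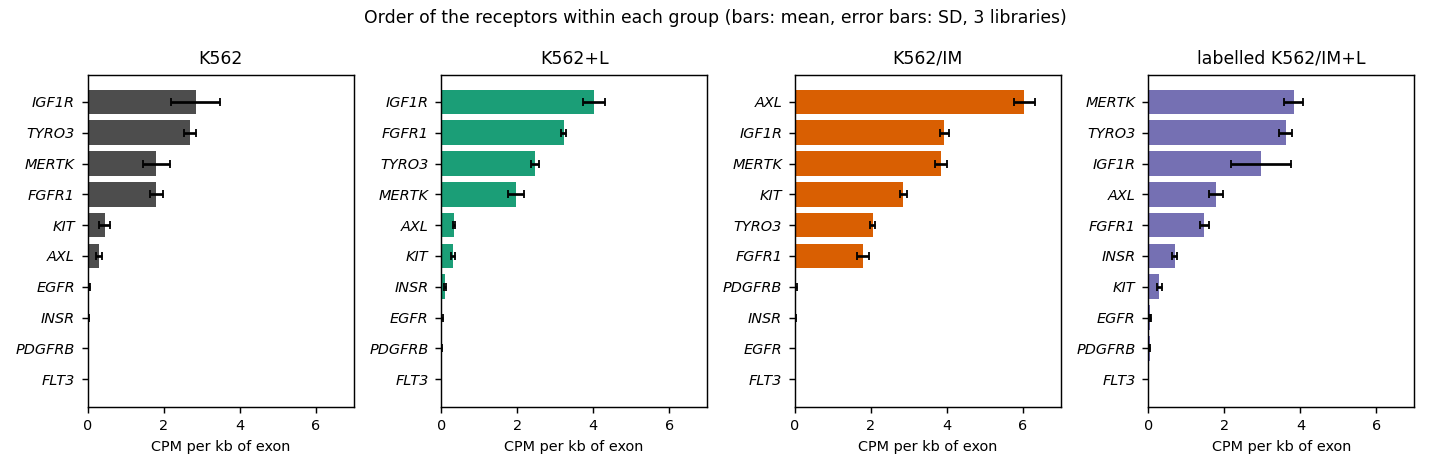
Level of each receptor in CPM per kb of annotated exon (linear axis from 0), ordered within each of the 4 groups; bars are means and error bars the SD of 3 libraries. AXL leads in K562/IM at 6.04, and is sixth in K562 at 0.308.

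The effect of lycorine was compared between the lines as the difference of both log2 fold changes over all 12 libraries, with the labelled libraries taken as labelled. Of 9 members tested, 3 were higher and 4 lower, where 29.9% of 13995 genes were called higher and 31.7% lower. The difference was 3.67 for EGFR (SE 0.91, adjusted p = 0.00426), 2.91 for INSR (SE 0.51, adjusted p = 0.000422) and 0.95 for TYRO3 (SE 0.10, adjusted p = 1.12e-05) in edgeR's quasi-likelihood test. It was -2.77 for KIT (SE 0.37, adjusted p = 5.37e-05), -1.93 for AXL (SE 0.22, adjusted p = 1.4e-05), -1.10 for FGFR1 (SE 0.14, adjusted p = 2.64e-05) and -0.90 for IGF1R (SE 0.25, adjusted p = 0.00907). MERTK (-0.13, SE 0.19, adjusted p = 0.581) and PDGFRB (-1.14, SE 1.7, adjusted p = 0.575) did not pass. For EGFR the difference was 4.46 without K562+L replicate 1. INSR thus rose in both lines, as labelled, and by more in the labelled libraries, whereas FGFR1 rose in K562+L alone among the comparisons with lycorine.

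Ligands of the members were read from a list of 34, of which 14 or 15 could be tested in each pairwise comparison. In K562/IM, 4 of 15 were higher and 5 lower than in K562 (median log2 fold change -0.04, and 0.04 over all genes), near the 30.1% and 27.1% of all genes called higher and lower. GAS6, the TAM ligand, was at 19.3, 26.3 and 25.7 CPM in K562, 14.2, 12.9 and 15.0 CPM in K562/IM and 49.7, 53.8 and 39.4 CPM in the K562/IM+L-labelled libraries. K562/IM and K562+L (mean 14.6 CPM) were lowest and overlapped. GAS6 fell by 0.76 on the log2 scale in K562/IM (SE 0.13, adjusted p = 0.00203) and was 1.79 higher in the labelled group than in K562/IM (SE 0.13, adjusted p = 1.86e-05). PROS1, which encodes protein S, was well expressed throughout, at group means of 86.3 (K562), 57.0 (K562+L), 91.0 (K562/IM) and 67.4 CPM (labelled).

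IGF1, the ligand of IGF1R, was low in K562/IM and in the labelled libraries. Its level was 35.4, 28.7 and 24.6 CPM in K562 and 0.0359, 0.375 and 0.14 CPM in K562/IM (3, 36 and 15 counts), a fall of 7.29 on the log2 scale (SE 0.48, adjusted p = 1.48e-05). The K562/IM+L-labelled libraries gave 0.918, 0.488 and 0.34 CPM. In K562+L replicates 1 and 3 gave 130 and 142 CPM and replicate 2 gave 23.3 CPM, below all 3 K562 libraries. The K562+L difference was 1.73 on the log2 scale (SE 0.56, adjusted p = 0.0408), with groups that overlapped. IRS1, the adaptor that IGF1R and INSR phosphorylate, was also lowest in K562/IM, with means of 9.72 CPM in K562, 19.6 in K562+L, 0.332 in K562/IM and 2.05 in the labelled libraries. It fell by 4.88 on the log2 scale in K562/IM (SE 0.30, adjusted p = 1.08e-05). IRS2, its homologue, was at 11.2, 33.1, 15.7 and 19.8 CPM in the same order, and 1.55 higher on the log2 scale in K562+L than in K562 (SE 0.11, adjusted p = 0.000166). IGFBP4, a secreted binder of insulin-like growth factors, was at 25, 8.25, 77.4 and 12.3 CPM, highest in K562/IM. Of the 6 IGF-binding genes tested there, 2 were higher than in K562 and 0 lower, against 30.1% and 27.1% of all genes. The 2 were IGFBP4 and IGFBP2. IGFBP2 passed the filter only through K562/IM, at a mean of 0.27 CPM, and was at 0 counts in every K562 library. IGF2 had at most 29 counts in any library, and INS was at 0 in all 12.

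KITLG, which encodes stem cell factor, held 3 counts in 1 K562 library and 0 in the other 11, so its transcript was not detectable at this depth where KIT was highest. FLT3LG, the ligand of FLT3, rose with a log2 fold change of 1.31 in K562/IM (SE 0.31, adjusted p = 0.00781), from a mean of 0.741 to 1.84 CPM. EGF was at means of 1.66 CPM in K562 and 10.9 in K562/IM, 2.71 higher on the log2 scale (SE 0.14, adjusted p = 5.67e-06), where EGFR was lower. PDGFB was at means of 13.0 CPM in K562, 3.02 in K562+L, 1.22 in K562/IM and 14.0 in the labelled libraries. It fell by 3.41 on the log2 scale in K562/IM (SE 0.18, adjusted p = 6.12e-06) and by 2.11 in K562+L (SE 0.13, adjusted p = 8.44e-05). FGF2, a ligand of FGFR1, was at means of 53.7, 54.6, 24.8 and 26.1 CPM in the order K562, K562+L, K562/IM and labelled, and fell by 1.12 on the log2 scale in K562/IM (SE 0.16, adjusted p = 0.000789).

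**Figure D4:**
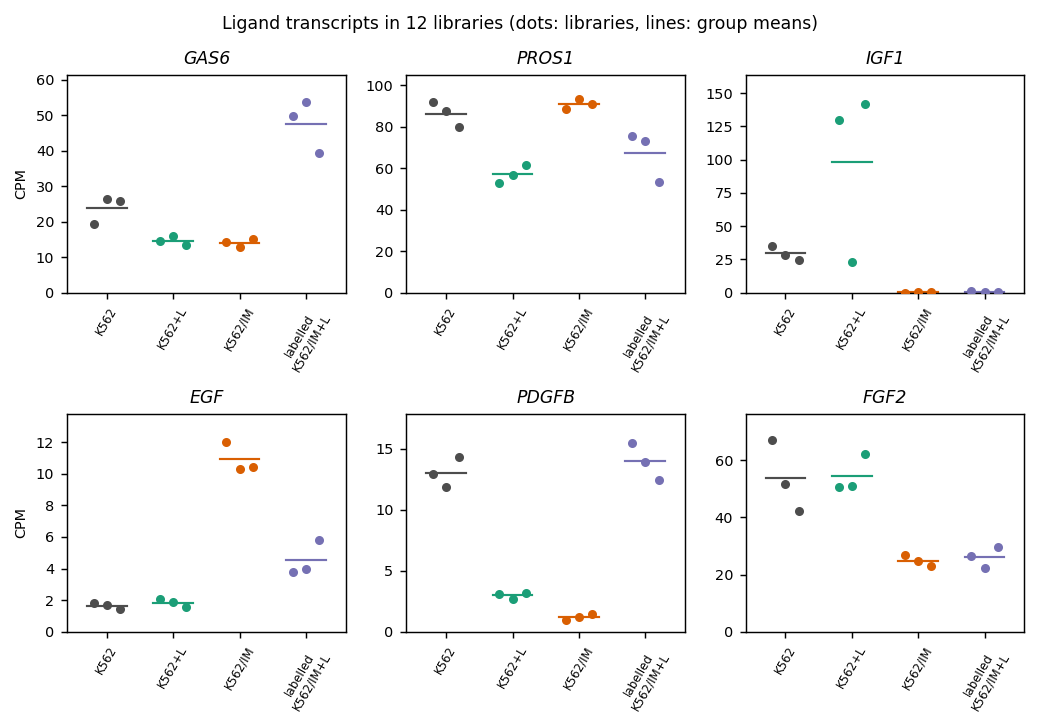
CPM (linear axis from 0, a scale for each panel) of 6 ligand transcripts in each of 12 libraries, in 4 groups of 3; dots are libraries and lines are group means. IGF1 is at 24.6 to 35.4 CPM in K562 and at most 0.375 in K562/IM, and its 3 K562+L libraries differ widely, from 23.3 to 142.

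Among all 58 human receptor tyrosine kinases, members included, 37 could be tested in K562/IM against K562, of which 16 were higher, 10 lower and 11 did not pass (median log2 fold change 0.17, and 0.04 over all genes), where 30.1% of all genes were called higher and 27.1% lower. AXL and KIT were thus 2 of 16 receptor genes with a higher transcript level there. The 16 include CSF1R, TEK, KDR, INSRR and NTRK2, which held at most 11 counts in any K562 library. They passed the filter only through K562/IM, so their reference was hardly measured. Among the lower genes, EPHA4 and EGFR held at most 17 counts in any K562/IM library and passed through K562. The receptor counts of the other comparisons also hold genes that passed through a single group. Outside the 10, the genes named here had at least 1 CPM in a group and libraries that did not overlap. High fold changes among them were those of EPHB6, a kinase-dead ephrin receptor, at 4.76 (5.94 CPM in K562, 161 in K562/IM), and of NTRK2 at 3.81 (0.0789 and 1.12 CPM). ERBB3 (-2.49), ROR2 (-1.09) and LTK (-0.98) fell furthest of these, and the plot of tested receptors also holds genes under 1 CPM. EPHB6 and NTRK2, like AXL and KIT, fell from K562/IM to the labelled libraries, at -4.84 and -3.96. LTK (3.51), FLT4 (2.90) and ERBB3 (2.87) rose furthest of these in that comparison, where 15 of 39 were higher and 10 lower, against 33.2% and 33.6% of all genes. In K562+L, 4 of 33 were higher and 10 lower, against 18.2% and 19.0% of all genes, with LMTK2 (0.70) highest outside the members, and LMTK3 (-1.13) and FGFR4 (-1.12) among those that fell. In the labelled libraries against K562, 15 of 36 were higher and 4 lower, against 28.2% and 27.8% of all genes, with LTK (2.49), MET (2.14) and ERBB2 (2.02) highest and DDR2 (-2.34), FGFR4 (-0.93) and TIE1 (-0.65) lowest. Of the 8 kinase genes listed as bound by imatinib, KIT and PDGFRB included, ABL1 was at means of 280, 350, 271 and 328 CPM in K562, K562+L, K562/IM and the labelled libraries, and DDR2 at 6.74, 4.93, 9.76 and 1.35. Of the 6 of these genes tested in K562/IM against K562, 3 were higher and 0 lower, against 30.1% and 27.1% of all genes. The 3 were KIT, DDR2 and CSF1R. CSF1R passed the filter only through K562/IM, against a reference of 2 counts in 1 K562 library.

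**Figure D5:**
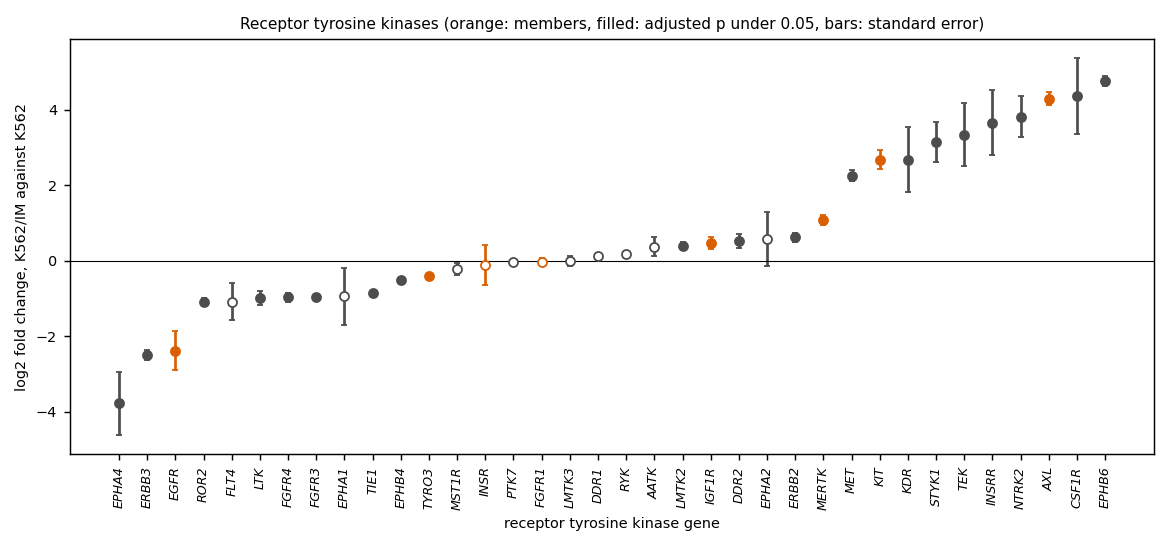
Log2 fold change in K562/IM against K562 of receptor tyrosine kinase genes that could be tested, in rising order, with the standard error as a bar; members are orange and filled points had an adjusted p under 0.05. AXL (4.29) and KIT (2.68) stand among the genes at the upper end, with EPHB6 at 4.76, and EGFR (-2.38) near the lower end.

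Signalling partners were counted from lists of adaptors and of negative regulators. Of 27 adaptor genes tested in K562/IM against K562, 14 were higher and 6 lower (median log2 fold change 0.25), where 30.1% of all genes were called higher and 27.1% lower, with SHC4 (7.23, from 0.0199 CPM in K562) and IRS1 at the ends. Of 25 genes that restrain receptor signalling, 16 were higher and 3 lower (median 0.61), against the same shares of all genes. INPP5D, which encodes the lipid phosphatase SHIP1, rose by 8.96 on the log2 scale, from 15 counts over the 3 K562 libraries to 9038 over the 3 K562/IM libraries, and DOK3 fell by 2.49. INPP5D and SHC4 held at most 13 counts in any K562 library and passed the filter only through K562/IM, so their reference was hardly measured. In the labelled libraries against K562/IM, 9 adaptors were higher and 9 lower of 27, and 6 restraining genes were higher and 16 lower of 25 (medians 0.02 and -0.70), where 33.2% of all genes were called higher and 33.6% lower. SPRY4, a feedback inhibitor of the RAS cascade, was at means of 13.4, 7.93, 50.6 and 0.642 CPM in K562, K562+L, K562/IM and the labelled libraries, and fell by 6.28 on the log2 scale between the last 2. In K562+L, 10 of 26 adaptors were higher and 2 lower, against 18.2% and 19.0% of all genes, with SHC2 (3.35) and SH2B3 (-1.32) at the ends, and 5 of 25 restraining genes were higher and 5 lower, with PTPRF (0.97) and UBASH3A (-0.90) at the ends among those at 1 CPM or more in a group. Against K562 the labelled libraries had 7 adaptors higher and 10 lower of 26 and 9 restraining genes higher and 9 lower of 26, against 28.2% and 27.8% of all genes. In the labelled libraries, DOK2 against K562/IM and INPP5D against K562 also passed the filter through a single group. The counts are not read as a result about either list.

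The genes whose pattern over the 12 libraries was most like that of a member were found by the root mean square difference of centred log2 levels among 12257 genes. For AXL they were ADAMTS10 (0.23), ENPEP (0.24) and ITGA7 (0.25), and for KIT they included SLC44A1 (0.19) and BTBD19 (0.22). SLC44A1, a choline transporter, was at means of 11.6, 10.8, 61.3 and 9.15 CPM. For INSR they were MYBPHL (0.25), LRRC14B (0.31) and MRGPRE (0.31). The measure grows with the spread of the member itself and is not compared between members. The first gene was HOXB9 (0.051) for TYRO3, ITSN2 (0.061) for IGF1R, CD101 (0.079) for FGFR1 and ERAP1 (0.12) for MERTK.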

How the data were processed

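Poly(A)-enriched RNA of 4 groups of 3 libraries was sequenced. The authors deposited a table of raw counts, 1 row per gene symbol and 1 column per library. The labels' processing notes list hg38, FastQC, STAR, StringTie and DESeq2, without versions, and which tool made the counts, and whether strand was used, is not given in the sources used here. Exon bases shared with other genes were at most 1.49% of a member's (EGFR with EGFR-AS1).

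In R 4.3.3, the 6 libraries of each comparison went through filterByExpr (10 counts at least) and TMM scaling and were tested with edgeR 4.0.16 (quasi-likelihood test), with Benjamini-Hochberg adjustment over all genes tested. SE is the fold change over the root of F. CPM used TMM factors of all 12 libraries. The interaction used all 12. DESeq2 1.42.0 and other normalizations, filters and libraries were alternatives. The steps were tested on simulated data. Lengths and positions came from GENCODE 29 (GRCh38), promoters from RefSeq (GRCh38.p14).

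The members and gene lists were chosen with earlier results of these data known. From each list of other genes the text takes, in each comparison, up to 3 called genes per direction (adaptors and restraining genes 1) with the largest fold change, at least 1 CPM in a group and libraries that did not overlap, and also the ligands and insulin receptor adaptors of the members. Genes most like a member (up to 3 for AXL, KIT and INSR, 1 for the others) needed a mean of 1 CPM in a group and used log2(CPM + 0.5). Some genes that this rule names are not reported here. Replicate numbers did not pair the libraries, since 4 of 18 same-numbered pairs had deviations correlated above 0.1 (range -0.57 to 0.41, and -0.46 to 0.57 for other pairs).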

Additional observations from a re-analysis of the deposited data

Results flagged for a closer look

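The response to lycorine differed between the lines, taken as labelled, for 7 of the 9 receptors tested, by the interaction in edgeR's quasi-likelihood test over 12 libraries. Of all 13995 genes tested, 29.9% were called higher and 31.7% lower by the same interaction, so the count is not read as a result about the receptors. The log2 fold change in the K562/IM+L-labelled libraries (against K562/IM) less that in K562+L (against K562) was 3.67 for EGFR, 2.91 for INSR, 0.95 for TYRO3, -0.90 for IGF1R, -1.10 for FGFR1, -1.93 for AXL and -2.77 for KIT. In each of the 19 alternatives run for AXL, KIT, INSR, TYRO3, FGFR1 and IGF1R, and the 18 for EGFR, the difference kept its sign and passed. EGFR was under 1 CPM in every library, and its value rests on 31 counts over the 3 K562/IM libraries and 73 over the 3 K562+L libraries. No group had more than 3 libraries, so no single library was examined for standing apart by Dixon's test.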

How the results depend on the processing

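In K562/IM against K562, AXL, KIT, MERTK, TYRO3 and EGFR kept direction and call under every alternative fit, tool and filter that tested them. So did INSR and FGFR1 in K562+L, and INSR, AXL, KIT, EGFR and TYRO3 in the K562/IM+L-labelled libraries against K562/IM. The other genes named here were tested in 14 alternatives. EGFR was tested in 12 in K562/IM against K562 and in 13 in the labelled libraries against K562/IM. The remaining alternatives gave no EGFR result, so they do not bear on its call. With an absolute log2 fold change over 1 also required, FGFR1 in K562+L and TYRO3 in both comparisons were no longer called, and 1 member was called in K562+L against K562 (6.39% of all genes). Under a replicate block, 2 members were called in K562+L against K562 (IGF1R lost, adjusted p = 0.061), 6 in K562/IM against K562, 6 in the labelled libraries against K562/IM (IGF1R added at -0.41, adjusted p = 0.037) and 4 against K562 (FGFR1 and PDGFRB lost, adjusted p = 0.0832 and 0.0812), with edgeR's quasi-likelihood test. Over all genes, that block called 3126 of 12927 in K562+L against K562 and 7138 of 13406 in K562/IM against K562. In the labelled libraries it called 8868 of 13727 against K562/IM and 5700 of 13307 against K562. The member counts are not read as a result about the receptors. Of the alternatives, the IGF1R call passed 7 of 14 in K562+L and 10 of 14 in K562/IM, FGFR1 in the labelled libraries against K562 passed 3 of 14, and PDGFRB there 5 of 12.

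Differences that did not pass also changed sign. In K562/IM against K562, FGFR1 was 0.03 with upper-quartile normalization and -0.11 to 0.05 with a library left out, and INSR was 0.01 under the replicate block and -0.34 to 0.45 with a library left out. In the labelled libraries against K562/IM, PDGFRB was 0.01 (upper quartile), 0.08 (replicate block) and -0.46 to 0.36, and MERTK -0.01 (12 libraries in 1 fit) and -0.04 to 0.06. IGF1R against K562 was -0.19 to 0.22, and the MERTK interaction was 0.0 with upper-quartile normalization. The causes were not tested. Over all genes, 4821 were called in K562+L against K562, 3126 under the replicate block, 2871 without K562 replicate 2, 2971 without K562+L replicate 1 and 3058 without K562+L replicate 3. Upper-quartile normalization changed the labelled libraries against K562 from 3753 higher and 3693 lower to 4564 and 2883 (median log2 fold change 0.02 to 0.17) and moved the interaction median from -0.02 to 0.11. Depth limits EGFR, PDGFRB, FLT3 and, in cells without lycorine, INSR.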

Other observations

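In K562, replicate 1 was the highest of 3 libraries for IGF1R (49.3 CPM), MERTK (10.5), INSR (0.393) and EGFR (0.773), and the lowest for AXL (1.28), TYRO3 (27.5) and FGFR1 (22.8). In the libraries labelled K562/IM+L, replicate 3 was the highest for IGF1R (54.1 CPM), KIT (2.09), MERTK (19.3) and INSR (7.69). It was the lowest for AXL (8.01), TYRO3 (37.4), EGFR (0.478) and PDGFRB (0.159). BCR, whose first exons are part of the fusion transcript, was at 127, 77.3 and 72.4 CPM in K562, 209, 166 and 188 CPM in K562+L, 92.4, 81.8 and 125 CPM in K562/IM and 75.6, 62.0 and 145 CPM in the labelled libraries. The library with the highest IGF1R had the highest BCR in K562, K562/IM and the labelled group, and not in K562+L.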
